A study of Mus musculus with 1 sample.

Results

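The genes described here encode S100 proteins, annexins, galectins and Hmgb proteins, which were read on 1 one-colour array of parental RAW264.7 cells, a macrophage-like cell line from mouse. Members were taken by gene symbol alone, from the platform's annotation, by a rule that used no measured value. The rule was chosen with earlier results of these data known. The symbols gave 39 genes of the 19321 named on the array, namely 15 S100 genes, 12 annexin genes, 8 galectin genes and 4 Hmgb genes. Each was read by 1 probe on 1 spot, so no member had a second reading.

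The study set parental cells against lines derived from them with the mutagen ENU and sorted for loss of peroxiredoxin uptake. Only the parental line was analysed here, the cells had RPMI-1640 medium with serum, and the labels name no added stimulus. There is no replicate and no comparison between lines, so no p-value is given, and precision is limited by there being 1 array.

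Many cell proteins act as alarm signals, or alarmins, once they leave a damaged or activated cell. S100 proteins are small calcium-binding proteins of the EF-hand type, and some are released by myeloid cells and read by the receptors Tlr4 and Ager. Annexins bind acidic phospholipids of membranes when calcium is present, galectins bind beta-galactoside sugars on glycoproteins, and Hmgb proteins bend DNA in the nucleus and become alarm signals outside it. Peroxiredoxins, the cargo of the study, also belong to the proteins that can act this way outside cells.

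Values are spot median intensities of the Cy5 channel in arbitrary units, with no background subtracted. They were read against a blank threshold of 22.98, the mean plus 2 SD of the trimmed blank spots. The receptor threshold was 55.8, the 95th percentile of 1221 probes for smell and taste receptors. Of 1210 such receptor genes, 451, or 37.3%, were over the blank threshold, so passing it alone does not show a transcript. Where background was corrected, both thresholds were recomputed on the corrected values. With local background subtracted they were 5.87 and 27.0. Of named probes over the 22.98 threshold, 14.6% were then not over 5.87. Signal depends on the probe as well as on the transcript, so genes were not ranked against each other, and a probe that binds poorly would also read low. RNA was taken from whole cultures, in which fewer cells with a transcript and less of it per cell cannot be told apart.

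Listed genes of macrophage identity gave signal on the array. The marker lists were chosen with earlier results of these data known, so they describe the line and do not test its identity. Of 19 genes of macrophage identity, 19 were over the blank threshold and 18 the receptor threshold. Among the 18 were Csf1r, which encodes the CSF-1 receptor, at 642, Adgre1 at 205 and Cd68 at 6442. Mertk, at 23.3, was 1.01 times the blank threshold and not over the receptor threshold. Fewer markers of other cells that make S100 proteins passed the receptor threshold, which 42.7% of all named genes passed. They were 3 of 16 neutrophil genes, 1 of 15 keratinocyte genes, 1 of 14 genes of glia and muscle and 0 of 13 genes of fibroblasts and endothelium. The exact 95% interval of the neutrophil list, 4.05 to 45.6%, holds the share of all named genes. For the list of fibroblasts and endothelium the interval runs up to 24.7%.

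Of the 39 genes, 32 exceeded the blank threshold, or 82.1% (exact Clopper-Pearson 95% interval 66.5 to 92.5), beside 72.8% of all named genes. The receptor threshold was passed by 22, or 56.4% (39.6 to 72.2), beside 42.7% of all named genes. Both intervals hold the share of all named genes, and they cover the counting of genes only. The median signal was 121 over the 39 genes and 40.1 over all named genes. Members lay on either side of the thresholds within each of the S100, annexin and galectin families, while the Hmgb genes were all over the blank threshold.

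**Figure D1:**
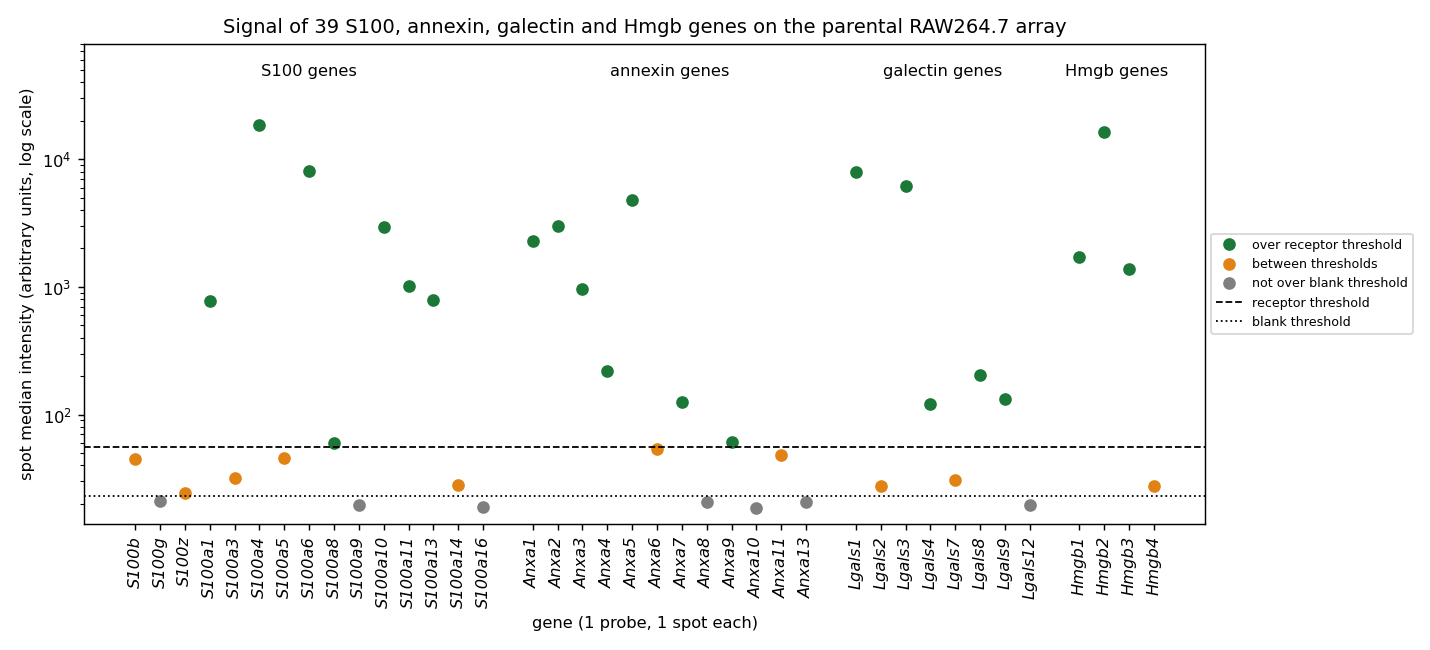
Spot median intensity of each of the 39 genes on a log scale, grouped by family, with 1 point per gene from 1 spot. Points over the dashed receptor threshold (55.8) number 22, those between it and the dotted blank threshold (22.98) number 10, and 7 are not over the blank threshold.

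Among S100 genes, 12 of 15 exceeded the blank threshold (interval 51.9 to 95.7%), beside 72.8% of all named genes. The receptor threshold was passed by 7, or 46.7% (21.3 to 73.4), beside 42.7% of all named genes. S100a4, known as metastasin, which binds non-muscle myosin, read 18567, or 808 times the blank threshold. S100a6, or calcyclin, read 8052, or 350.4 times that threshold. Both lay far over the receptor threshold too.

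The S100 proteins that pair with annexins were also over the receptor threshold. S100a10, which has lost calcium binding and forms a complex with annexin A2, read 2920, or 127 times the blank threshold. S100a11, which binds annexin A1, read 1011, or 44.0 times the threshold. S100a1, best known from heart and skeletal muscle, read 779.7, and S100a13, which takes part in the release of FGF1, read 784, so both were about 34 times over the threshold (33.9 for S100a1 and 34.1 for S100a13).

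S100a8 and S100a9 encode the subunits of calprotectin, the main S100 complex of neutrophils and a ligand of Tlr4. S100a8 read 60.2, which is 2.62 times the blank threshold and 1.08 times the receptor threshold. S100a9 read 19.4 and lay under the blank threshold. The probes of the subunits therefore fell on different sides of both thresholds, and S100a8 exceeded the receptor threshold by a narrow margin. Of 16 neutrophil genes on the same array, 11 (68.8%) were over the blank threshold and 3 (18.8%) over the receptor threshold. Among all named genes the shares were 72.8% and 42.7%. The neutrophil intervals, 41.3 to 89.0% and 4.05 to 45.6%, hold these shares. Granule genes lay on either side of the blank threshold, with Mpo, the myeloperoxidase gene, at 18.6 and Camp at 22.4 under it. Ltf at 27.5, Elane at 34.6 and Lcn2 at 49.99 lay between the thresholds. Csf3r, the G-CSF receptor gene, read 105, Cebpe read 112.7 and Ly6g read 66.7, all over the receptor threshold.

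The other S100 genes lay between the thresholds or below both. S100a5, known from olfactory neurons, read 45.6, S100b, the S100 protein of astrocytes, read 44.8, S100a3 of hair read 31.8, epithelial S100a14 read 28.1 and S100z read 24.4. These 5 lay between the thresholds, although S100a14 was under the blank threshold with local background subtracted or with normexp, a model-based background correction, and S100z was under it with the 99th percentile of the blanks or with the No probe spots as the threshold. S100g, the vitamin D-dependent calcium-binding protein of the gut, read 20.8 and S100a16 read 18.7, and neither exceeded the blank threshold.

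Of the 15 S100 genes, 12 lie on mouse chromosome 3, where their order was taken from the RefSeq gene table of assembly GRCm38.p6. Neighbours along this cluster fell on different sides of the thresholds. In chromosomal order S100a1 and S100a13 were over the receptor threshold, S100a14, S100a16 and S100a3 were not, S100a4 was over it, S100a5 was between the thresholds, and S100a6 was over it again. S100a8 and S100a9 followed, and S100a7a, a neighbour that the symbol rule did not take, read 81.2. After them come 44 genes with a named probe before S100a11 and S100a10, mostly genes of the cornified layer of skin such as the late cornified envelope (Lce) and small proline-rich (Sprr) genes.

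Of those 44 genes, 22 exceeded the blank threshold (interval 34.6 to 65.4%), beside 72.8% of all named genes, and 7 exceeded the receptor threshold, or 15.9% (6.64 to 30.1), beside 42.7% of all named genes. Their median signal was 23.0, and Flg, the filaggrin gene, read 19.7. The 7 were Lce3c at 203, Lce1f at 187, Lce1d at 148, Sprr1a at 132, Lce3f at 94.2, Smcp at 90.6 and the ribosomal protein pseudogene Rplp0-ps1 at 10949. The Rplp0-ps1 value is uncertain, as its probe may also bind transcripts of the parent gene, which was not tested. S100a11 and S100a10, at the far side of this stretch, were both over the receptor threshold. This stretch was examined after the S100 values were seen.

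**Figure D2:**
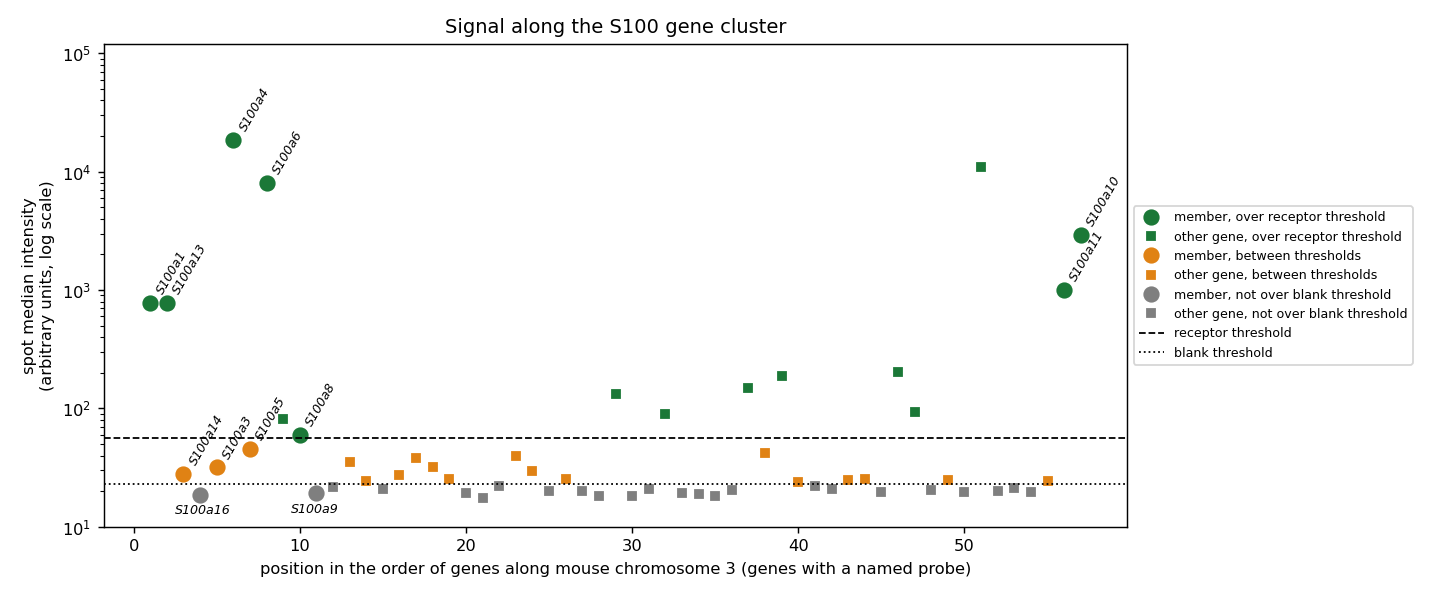
Spot median intensity on a log scale against the order of genes along mouse chromosome 3 from S100a1 to S100a10, for the 57 genes with a named probe. Large circles are S100 members, of which 7 of 12 lie over the dashed receptor threshold, and small squares are other genes, most of them under it.

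The promoters of neighbouring cluster genes on different sides of the thresholds are shown here so that they can be read side by side. Sequences are from RefSeq, build GRCm38.p6, as windows that run from 250 bases before the annotated start to 50 bases from it, 5′ to 3′ on the gene's strand. Capitals mark matches on either strand to 5 short motifs. These are TATAAA for the TATA box, CCAAT for NF-Y, TGANTCA for AP-1, GGGCGG for Sp1 and GAGGAA for ETS factors such as PU.1. Adjoining matches run together. S100a4 lies at chr3:90603520-90603819, S100a5 at chr3:90608272-90608571, S100a6 at chr3:90612644-90612943 and S100a8 at chr3:90668821-90669120, all on the plus strand, and S100a9 lies at chr3:90695672-90695971 on the minus strand.
S100a4: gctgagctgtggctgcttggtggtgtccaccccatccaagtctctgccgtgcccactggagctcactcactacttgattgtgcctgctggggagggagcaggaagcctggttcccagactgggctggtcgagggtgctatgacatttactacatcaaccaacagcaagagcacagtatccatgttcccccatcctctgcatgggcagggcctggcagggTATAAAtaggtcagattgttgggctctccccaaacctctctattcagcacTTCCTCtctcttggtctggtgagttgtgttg
S100a5: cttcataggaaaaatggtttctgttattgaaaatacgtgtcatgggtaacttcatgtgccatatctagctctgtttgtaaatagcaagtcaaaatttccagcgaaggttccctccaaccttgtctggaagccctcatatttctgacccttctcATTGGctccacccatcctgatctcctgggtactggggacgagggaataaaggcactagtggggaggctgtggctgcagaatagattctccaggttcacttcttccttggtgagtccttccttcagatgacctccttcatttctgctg
S100a6: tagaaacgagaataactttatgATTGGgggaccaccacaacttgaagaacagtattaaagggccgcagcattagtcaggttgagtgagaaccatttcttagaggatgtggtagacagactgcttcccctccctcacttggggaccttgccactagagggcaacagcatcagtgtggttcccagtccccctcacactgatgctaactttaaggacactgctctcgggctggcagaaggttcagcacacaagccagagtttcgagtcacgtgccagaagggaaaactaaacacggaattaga
S100a8: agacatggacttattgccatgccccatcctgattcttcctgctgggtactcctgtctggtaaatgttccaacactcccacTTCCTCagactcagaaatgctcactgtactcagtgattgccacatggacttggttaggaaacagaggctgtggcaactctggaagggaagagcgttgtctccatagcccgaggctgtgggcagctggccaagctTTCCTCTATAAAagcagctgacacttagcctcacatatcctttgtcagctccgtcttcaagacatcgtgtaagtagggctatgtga
S100a9: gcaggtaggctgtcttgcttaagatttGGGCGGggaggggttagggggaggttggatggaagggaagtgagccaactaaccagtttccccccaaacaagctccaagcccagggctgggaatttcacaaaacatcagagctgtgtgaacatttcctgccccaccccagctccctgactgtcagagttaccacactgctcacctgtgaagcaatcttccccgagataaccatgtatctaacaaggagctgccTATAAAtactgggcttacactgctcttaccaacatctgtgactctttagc

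With the annotated start base counted as 0, TATAAA began at -31 in S100a4, at -30 in S100a8 and at 0 in S100a9. S100a5 and S100a6 held no TATAAA and 1 match each to CCAAT, on the reverse strand. S100a4 and S100a6, which were both over the receptor threshold, had 2 and 6 CpG dinucleotides in their windows, and S100a5 between them had 3. S100a8 had 4 and S100a9 had 2. The letters searched thus did not fall into 1 arrangement for the genes over the receptor threshold. The windows of S100a1 and S100a13, genes on opposite strands whose starts face away from each other, share 204 bases, and none of the 5 motifs occurred in either.

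Annexins gave signal over the blank threshold in 9 of 12 cases, or 75.0% (42.8 to 94.5), beside 72.8% of all named genes. Over the receptor threshold there were 7, or 58.3% (27.7 to 84.8), beside 42.7% of all named genes. Anxa5, whose protein binds phosphatidylserine and is used to stain dying cells, read 4815, or 209.6 times the blank threshold. Anxa2, the partner of S100a10 in binding plasminogen at the cell surface, read 2995, or 130.3 times the threshold. Anxa1, a protein released by myeloid cells that acts through formyl peptide receptors, read 2302, or 100.2 times the threshold. Signal was thus present for both members of the Anxa2 and S100a10 pair and of the Anxa1 and S100a11 pair.

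Anxa3 read 969, Anxa4 read 219 and Anxa7, or synexin, read 125, and these were 42.2, 9.55 and 5.44 times the blank threshold. Anxa9, an annexin with altered calcium-binding sites, read 61.2, which is 1.10 times the receptor threshold. Its local background was 40.3. With local background subtracted Anxa9 read 20.8, between the recomputed thresholds of 5.87 and 27.0. With normexp it read 82.4, between recomputed thresholds of 67.5 and 88.6. Anxa6, the annexin with a duplicated core, read 53.6 and Anxa11 read 48.5, and both lay between the thresholds. Anxa13 of the gut, Anxa8 and Anxa10 read 20.7, 20.6 and 18.6 and lay under the blank threshold.

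Of 8 galectins, 7 exceeded the blank threshold, or 87.5% (47.3 to 99.7), and 5 exceeded the receptor threshold, or 62.5% (24.5 to 91.5). The shares of all named genes were 72.8% and 42.7%. Lgals3, the chimera-type galectin known as the macrophage surface antigen Mac-2, read 6166, or 268 times the blank threshold. Lgals1, a prototype galectin that binds T cell glycoproteins, read 7914, or 344 times the threshold. Of the tandem-repeat galectins, which carry a pair of sugar-binding domains, Lgals4, Lgals8 and Lgals9 were over the receptor threshold and Lgals12 was not. Lgals8, a sensor of damaged endosomes, read 204, Lgals9, a ligand of the receptor Havcr2, read 133, and Lgals4 read 121.

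The remaining 3 galectins were not over the receptor threshold. Keratinocyte Lgals7 read 30.6 and Lgals2 read 27.8, both between the thresholds. With local background subtracted or with normexp, Lgals2 was under the blank threshold and 6 of 8 galectins were over it. Lgals12 of adipocytes, also of the tandem-repeat type, read 19.7 and lay under the blank threshold.

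Of 4 Hmgb genes, 4 exceeded the blank threshold, or 100% (39.8 to 100), and 3 exceeded the receptor threshold, or 75.0% (19.4 to 99.4). Among all named genes the shares were 72.8% and 42.7%. Hmgb1, the best known alarmin of the family, read 1700.4, or 74.0 times the blank threshold. Hmgb2, which is high in dividing cells, read 16433, or 715 times the threshold. Hmgb3 read 1383, or 60.2 times the threshold. Hmgb4, a gene of the testis, read 27.4, or 1.19 times the threshold, and its local background was also 27.4. With local background subtracted or with normexp, Hmgb4 was under the blank threshold and 3 of 4 Hmgb genes were over it.

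The RefSeq gene table lists 13 pseudogene or related records named after Hmgb1. The probe of one of them on the array, Hmgb1-rs18, read 176, so part of the Hmgb1 and Hmgb1-rs18 signals may be shared between near-identical transcripts and both values are uncertain.

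Promoter windows of the Hmgb genes over the receptor threshold are printed so that they can be read side by side. Hmgb1 lies at chr5:149053008-149053307 on the minus strand, and its second annotated window is not printed. Hmgb2 lies at chr8:57511593-57511892 and Hmgb3 at chrX:71555667-71555966, both on the plus strand. Source, orientation and capitals are as given for the S100 promoters.
Hmgb1: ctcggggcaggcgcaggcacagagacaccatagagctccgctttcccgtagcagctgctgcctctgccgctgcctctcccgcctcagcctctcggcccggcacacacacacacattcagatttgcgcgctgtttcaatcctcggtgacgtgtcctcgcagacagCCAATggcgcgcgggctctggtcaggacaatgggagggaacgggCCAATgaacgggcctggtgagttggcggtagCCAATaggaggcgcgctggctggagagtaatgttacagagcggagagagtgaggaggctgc
Hmgb2: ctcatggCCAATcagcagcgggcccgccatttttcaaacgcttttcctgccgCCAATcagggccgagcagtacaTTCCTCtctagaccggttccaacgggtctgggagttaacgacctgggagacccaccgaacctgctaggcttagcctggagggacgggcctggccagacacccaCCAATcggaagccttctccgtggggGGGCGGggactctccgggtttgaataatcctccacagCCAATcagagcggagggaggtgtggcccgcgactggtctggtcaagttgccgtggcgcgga
Hmgb3: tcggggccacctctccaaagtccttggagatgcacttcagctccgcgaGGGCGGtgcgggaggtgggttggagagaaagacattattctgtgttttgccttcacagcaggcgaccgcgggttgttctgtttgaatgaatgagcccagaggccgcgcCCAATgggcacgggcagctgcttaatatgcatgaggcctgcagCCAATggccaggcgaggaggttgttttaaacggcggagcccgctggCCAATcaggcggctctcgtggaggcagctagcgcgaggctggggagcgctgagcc

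In the windows printed, CCAAT occurred on the forward strand 3 times in Hmgb1, 4 times in Hmgb2 and 3 times in Hmgb3. Its first base lay at -86, -42 and -11 in Hmgb1, at -243, -198, -73 and -11 in Hmgb2, and at -94, -51 and -5 in Hmgb3. The other Hmgb1 window held 0 matches to CCAAT and 4 to GGGCGG, so the match to CCAAT in Hmgb1 depends on which annotated start is taken. The Hmgb4 window held 1 match, on the reverse strand. The motif was held on either strand by 37.4% of all 32851 RefSeq windows, so its presence in a single window is common. The Hmgb1 windows had 22 CpG dinucleotides in the one printed and 45 in the other, those of Hmgb2 and Hmgb3 had 20 each, and that of Hmgb4 had 2.

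Windows were found for 32 of the 39 genes, 40 windows in all. The median number of CpG dinucleotides was 13 in the windows of members over the receptor threshold, 3 in those between the thresholds and 2.5 in those not over the blank threshold. Over all named genes of the same classes the medians were 21, 11 and 6. TATAAA was held by 8 of the 40 member windows, or 20.0%, beside 13.6% of all windows, and GGGCGG by 15, or 37.5%, beside 35.7%. CCAAT was held by 12, or 30.0%, GAGGAA by 12, or 30.0% beside 28.3%, and TGANTCA by 4, or 10.0% beside 7.81%. All windows include those of genes without a named probe. For GGGCGG, members and named genes over the receptor threshold stood at 43.5% and 61.8%. Between the thresholds they stood at 27.3% and 45.7%, and not over the blank threshold at 33.3% and 32.2%. For TATAAA, in the same order of classes, the values were 17.4% and 7.54%, 9.09% and 12.8%, and 3 of 6 windows and 17.4%. These differences were not tested. A match describes letters in a window and is not evidence of binding.

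The local background differed widely among members. Over the receptor threshold, the spot was from 1.52 to 68.5 times its local background, with a median of 3.41 over 22 genes. Hmgb2 stood at 68.5 times, S100a1 at 30.4 times and S100a6 at 28.4 times, while Hmgb3 stood at 1.84 times and Lgals9 at 1.69 times. Between the thresholds the ratio ran from 0.999 to 1.99 over 10 genes, and among the 7 genes not over the blank threshold from 0.779 to 1.25. S100a16 and S100g, neither over the blank threshold, and Hmgb4 had spots that were no brighter than their surroundings.

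**Figure D3:**
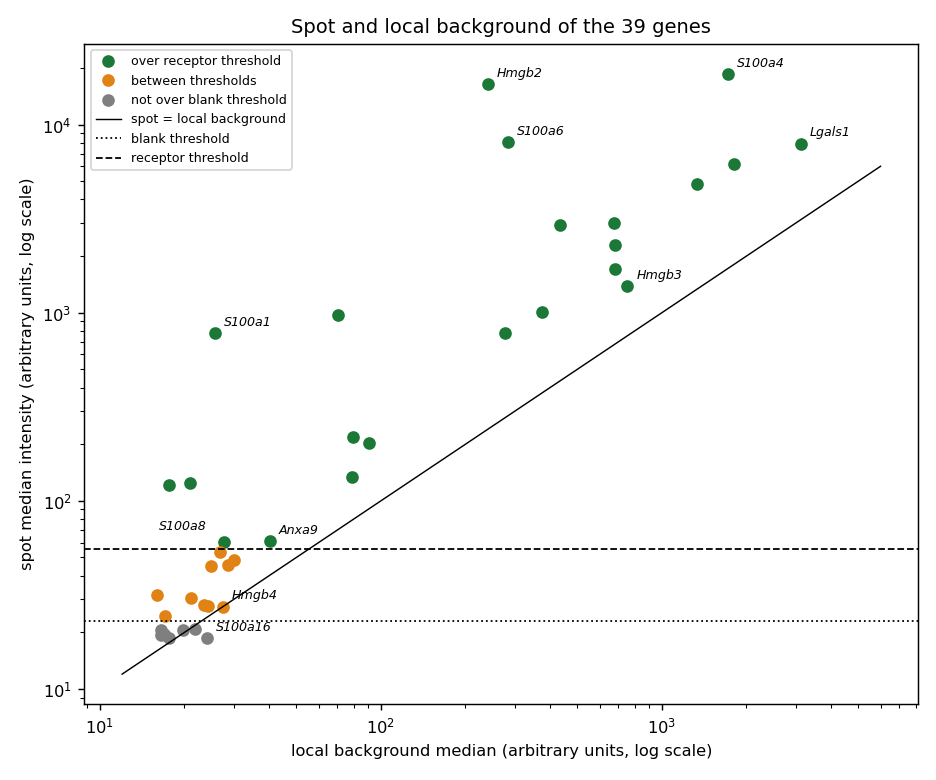
Spot median intensity against local background median of the 39 genes, both in arbitrary units on log scales, with the solid line where they are equal. Hmgb2 and S100a1 lie far over the line, and Hmgb4 and S100a16 lie on or under it.

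Bright neighbours on the slide were checked. The brightest of the adjacent spots read 2275 beside Hmgb4, 2396 beside S100z and 2327 beside Lgals7, which all lay between the thresholds. It also read 3465 beside Anxa10, whose own spot read 18.6. Beside the 22 genes over the receptor threshold it ran from 67.8 to 16678, the latter beside Hmgb1, which read 1700. Lgals4, which read 121, had a neighbour at 3770. Whether neighbouring spots added to any of these readings was not tested.

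Of 18 genes for receptors through which released alarmins act, 17 were over the blank threshold, or 94.4% (72.7 to 99.9), beside 72.8% of all named genes. The receptor threshold was passed by 12, or 66.7% (41.0 to 86.7), beside 42.7% of all named genes. Both intervals hold the share of all named genes. The receptors of the S100 and Hmgb1 signal, Tlr4 and its co-receptor Ly96, read 110.4 and 360.0, Tlr2 read 1917 and Cd14 read 6216. Ager, the receptor RAGE, read 22.99 and stood at the blank threshold itself. Bsg, a receptor for S100a9, read 627, and Cd36 read 1024.

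For annexin A1 the receptor gene Fpr2 lay between the thresholds at 27.8. Among receptors of galectins, Havcr2, or TIM-3, read 114 and Ptprc, the CD45 gene, read 877, while Mertk, which binds galectin-3, read 23.3 and Cd44 read 20.3. Cd44 was the member of this list not over the blank threshold. Cd24a and Siglecg, which together damp the Hmgb1 signal, read 776 and 35.5, and Trem1 read 47.1.

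Of 14 genes for proteins that bind the members inside cells or on their surface, 12 were over the blank threshold. The receptor threshold was passed by 10, or 71.4% (41.9 to 91.6). Among all named genes the shares were 72.8% and 42.7%. Cacybp, the calcyclin-binding protein that is a partner of S100a6, read 7177, and Sugt1, another S100a6 partner, read 843. Myh9, the non-muscle myosin heavy chain bound by S100a4, read 120.2. Pdcd6, which binds annexins A7 and A11, read 1745, and Lgals3bp, a secreted ligand of galectin-3, read 359.5. Ahnak, a large partner of the Anxa2 and S100a10 complex, read 33.7 between the thresholds, and Dysf, a membrane repair protein that binds annexins A1 and A2, read 22.3 and lay under the blank threshold.

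Of 23 other alarm signals, 19 were over the blank threshold and 14 the receptor threshold, or 60.9% (38.5 to 80.3). The shares of all named genes were 72.8% and 42.7%. Heat shock genes Hsp90aa1 and Hsp90b1 read 8685 and 7717, Calr read 544 and Cirbp read 239. Il1a lay between the thresholds at 26.6, and Il33 read 18.9 and Hspa1a read 19.4, neither over the blank threshold. The peroxiredoxin genes on this list with a named probe, Prdx1 and Prdx2, were over the receptor threshold. Other peroxiredoxin genes planned for the list had no named probe.

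Of 28 other EF-hand genes, 24 were over the blank threshold and 17 the receptor threshold, or 60.7% (40.6 to 78.5), among them Aif1, a macrophage calcium-binding protein, at 334. Of 16 other HMG genes, 13 were over the blank threshold and 10 the receptor threshold, or 62.5% (35.4 to 84.8), and Hmga2 read 84.5. At the receptor threshold the intervals of the receptor, partner, alarm signal, EF-hand and HMG lists all overlap that of the 39 members, and all hold the 42.7% of all named genes. The blank threshold was passed by 72.8% of all named genes. No difference between the lists was tested.

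**Figure D4:**
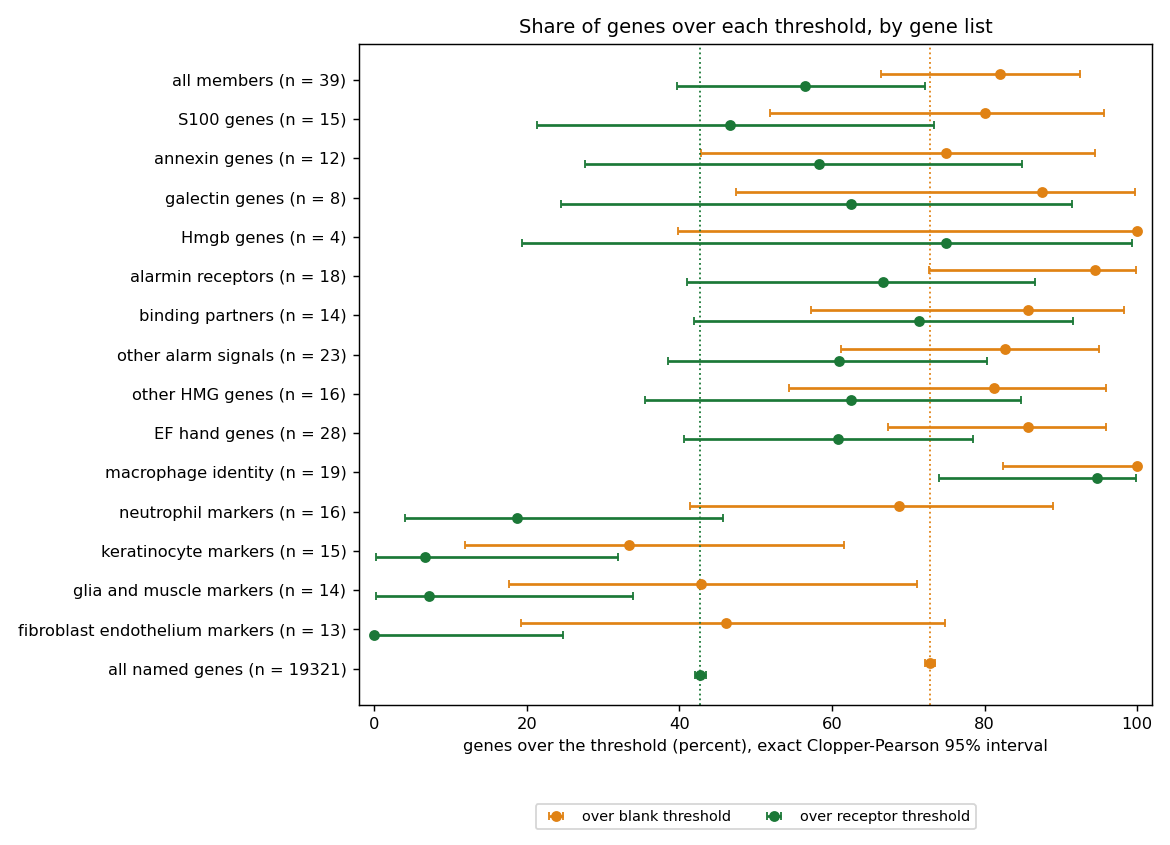
Percent of genes over the blank threshold and over the receptor threshold for the 39 members, their families, the context lists and all named genes, as points with exact Clopper-Pearson 95% intervals and dotted lines at the shares of all named genes (72.8% and 42.7%). The intervals of the members and of each family cross both lines, that of macrophage identity lies over them, and those of keratinocyte, glia and muscle, and fibroblast and endothelium markers at the receptor threshold lie under the 42.7% line.

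The authors' processed table gave the same division of the members. Its values follow the same scanner readings, so this is not an independent check. The table's 7 empty cells among members were the 7 genes not over the blank threshold, and the 32 others had a value. The authors' deposited table put S100a4 at 9010, Hmgb2 at 7973 and S100a8 at 19, on a scale that is lower than the scanner's.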

How the data were processed

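One array of parental RAW264.7 cells was used, and per the labels' protocols its RNA was amplified to amino allyl RNA and coupled to Cy5. Per the file headers, the deposited scanner intensity is the median of each spot in the Cy5 channel, beside a local background intensity, from 3 gains; the way the gains were combined is not stated there. The deposited processed intensity table states no scale or treatment of low values. Set against the scanner, its values follow the spot minus the blank mean (20.6) times 0.486 (SD 0.000364 over 2987 probes), and 6784 cells are empty.

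Of 27456 spots 0 were flagged. The blank threshold used 2464 of 2736 blanks after 5% were left out at each end (SD 1.18). A gene takes its highest probe, and the counts of each list cover only its genes with a named probe. Names come from the platform annotation, of which 20556 of 20690 named probes matched the RefSeq gene table of GRCm38.p6; of all 23473 gene probes 2783 have no symbol. Shares carry exact 95% intervals. The members, lists, thresholds and alternatives were chosen with earlier results of these data known. All members and all genes of the receptor and partner lists could be named, and in other lists up to 6 genes, first in alphabetical order, in each class (over the receptor threshold, between the thresholds, under both). Prdx1, Prdx2, S100a7a, the genes between S100a9 and S100a11 on chromosome 3 and Hmgb1-rs18 fall outside that rule and were named after their values were seen. Motifs and the stretch on chromosome 3 were added after the files were seen. Calculations used Python 3.11.15, scipy 1.17.1 and pandas 2.3.3, and normexp used limma 3.58.1.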

Additional observations from a re-analysis of the deposited data

How the results depend on the processing

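The alternatives were thresholds of 1 or 3 SD or of the 99th blank percentile, untrimmed blanks, thresholds from negative controls, from No probe spots or from each block, local background subtraction, the authors' table, normexp with an offset of 50, and other probe and symbol rules. Of the 39 members, 34 kept their place against both thresholds in all 14 alternatives, but most of these could not move a receptor call. The receptor threshold itself changed only with the thresholds of each block, local background subtraction, the authors' table and normexp. With local background subtracted and with normexp, Anxa9 moved to between the thresholds, and Hmgb4, Lgals2 and S100a14 moved under the blank threshold. S100z moved under it with the 99th percentile and with the No probe threshold. The shares of the members and their families stayed inside the 95% intervals of their reported values, which are wide. The median over the 39 genes was 3.02 times that of all named genes and ranged from 1.53 with normexp to 5.44 with the authors' table. Rules on several probes could change no member, as each has 1 probe. The rule of all probes and that of the lowest probe were the same calculation.

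At the blank threshold in place of the receptor threshold, by construction, more genes passed, and 72.8% of all named genes did. Shares there were 94.4% of alarmin receptors, 82.6% of other alarm signals, 85.7% of EF-hand genes and 100% of macrophage identity. For markers of other cells they were 68.8% of neutrophil, 33.3% of keratinocyte, 42.9% of glia and muscle, and 46.2% of fibroblast and endothelium genes. With the lowest probe of each gene, glia and muscle stood at 0%, because Mog had 1 probe at 146 and another at 18.5. A weak transcript near the blanks is not detectable with 1 array.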
